A study of Homo sapiens and Mus musculus with 36 samples.

Results

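A set of 9 secreted, enzymatic and droplet-coat genes of triglyceride handling were followed through a series on the histone methyltransferase EZH2 and the sterol regulator SREBP2 in liver cancer cells. ANGPTL4, ANGPTL8, LIPC, PNPLA3, GPAM, LPIN1, DGAT1, DGAT2 and PLIN2 were taken by symbol, 9 genes of the 26117 symbols in the 10 human comparison tables. All 90 possible rows were found, and 86 of them carried an adjusted p. The genes were proposed with results of these comparisons already known, so the values below describe them and counts over the 9 are no independent evidence about the set.

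The series holds 36 RNA-seq libraries, paired into 18 groups, and the 28 from HepG2 and Huh7, both human liver cancer lines, are used here. HepG2 cells received MS7126, a PROTAC (a molecule built to have its target, EZH2, degraded), its matched enzymatic inhibitor C24, or the non-PROTAC analogs MS7126N1 and MS7126N2, all at 5 uM for 48 h, against DMSO. Huh7 cells received 5 uM MS7126 against DMSO for 24 h by their own label, although another label of the series gives 48 h. The remaining groups were infected with pLKO.1-puro lentivirus and selected with puromycin: HepG2 with shSREBP2 hairpins 664, 665 and 667 or with shEZH2, and Huh7 with shEZH2, each against shControl, which the labels call both an empty vector and a scramble. The 4 HepG2 compound groups share 1 pair of DMSO libraries, and the 4 HepG2 hairpin groups share 1 pair of shControl libraries. The labels do not say that paired libraries are separate cultures, so each p-value measures only the spread between these libraries, which may be technical.

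Hepatocytes build triglyceride by adding acyl chains stepwise to glycerol 3-phosphate, store it in lipid droplets, and secrete it in lipoproteins. Lipases at the vessel wall and in the liver then break down the circulating triglyceride, and secreted angiopoietin-like proteins inhibit lipoprotein lipase. Many of these genes answer to sterol regulatory element-binding proteins, to peroxisome proliferator-activated receptors (PPARs) or to insulin.

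RefSeq promoter windows (GRCh38.p14, 250 bases before to 50 bases after the start) were read for 6 of the 9 genes. Those of ANGPTL8, ANGPTL4, PLIN2 and LIPC are printed 5′ to 3′, since ANGPTL8, ANGPTL4 and PLIN2 include the increases, and LIPC a decrease in both lines, described below for MS7126. Capitals mark matches, on either strand, to the E-box CACGTG, the CARE-like motif TGATGNAA (a form of the element bound by ATF4), the NF-Y box CCAAT, the SRE-like motif TCACNCCA and the HIF-like motif ACGTG, which also lies inside CACGTG. GC boxes (GGGCGG) were searched too and are left in lower case.
ANGPTL8: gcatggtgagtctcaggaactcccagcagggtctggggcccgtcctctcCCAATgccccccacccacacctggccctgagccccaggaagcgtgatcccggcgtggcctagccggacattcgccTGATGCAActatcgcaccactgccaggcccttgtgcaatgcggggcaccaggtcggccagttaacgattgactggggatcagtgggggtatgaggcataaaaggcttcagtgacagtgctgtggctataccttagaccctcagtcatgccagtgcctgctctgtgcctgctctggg
ANGPTL4: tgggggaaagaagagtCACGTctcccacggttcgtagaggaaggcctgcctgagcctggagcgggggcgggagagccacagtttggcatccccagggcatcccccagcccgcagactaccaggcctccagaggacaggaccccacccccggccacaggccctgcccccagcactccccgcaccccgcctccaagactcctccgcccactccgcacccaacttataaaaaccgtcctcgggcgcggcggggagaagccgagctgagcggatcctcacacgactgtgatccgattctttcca
PLIN2: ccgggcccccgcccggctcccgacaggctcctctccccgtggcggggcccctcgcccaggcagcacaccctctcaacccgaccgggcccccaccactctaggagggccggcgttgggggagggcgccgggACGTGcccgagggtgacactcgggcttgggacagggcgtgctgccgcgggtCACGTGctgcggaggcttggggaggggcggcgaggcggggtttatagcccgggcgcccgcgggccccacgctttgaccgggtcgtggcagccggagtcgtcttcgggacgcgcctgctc
LIPC: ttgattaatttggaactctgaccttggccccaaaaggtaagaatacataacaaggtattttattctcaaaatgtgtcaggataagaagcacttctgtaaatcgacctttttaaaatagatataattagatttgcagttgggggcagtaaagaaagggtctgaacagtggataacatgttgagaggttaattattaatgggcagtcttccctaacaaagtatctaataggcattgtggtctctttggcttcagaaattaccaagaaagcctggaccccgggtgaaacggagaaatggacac

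The ANGPTL8 window (chr19:11239369-11239668, plus strand, 61.7% GC) held a CARE-like match at position -126 from the start and a CCAAT box at -201. The ANGPTL4 window (chr19:8363905-8364204, plus strand, 66.3% GC) held a HIF-like match at -234, on the reverse strand, which the printed strand shows as CACGT. In the PLIN2 window (chr9:19127443-19127742, minus strand, 76.7% GC) an E-box lay at -69 and a HIF-like match at -120. The LIPC window (chr15:58431741-58432040, plus strand, 38.3% GC) held none of these letters. Among all 35116 RefSeq promoters of that length, 7.26% held CACGTG, 3.62% held TGATGNAA, 34.6% held CCAAT, 45.0% held GGGCGG, 3.95% held TCACNCCA and 21.4% held ACGTG. These matches describe letters in a window and say nothing of binding in these cells.

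Positions are on GRCh38. ANGPTL4 (chromosome 19, 8363289 to 8374373, plus strand) and ANGPTL8 (chromosome 19, 11237450 to 11241943, plus strand) are on the same chromosome. LIPC lies on chromosome 15 (58410569 to 58569843, plus strand), PNPLA3 on chromosome 22 (43923739 to 43964488, plus strand) and GPAM on chromosome 10 (112149864 to 112215377, minus strand). LPIN1 lies on chromosome 2 (11677595 to 11827409, plus strand), DGAT1 on chromosome 8 (144314584 to 144326910, minus strand), DGAT2 on chromosome 11 (75759512 to 75801535, plus strand) and PLIN2 on chromosome 9 (19108375 to 19149290, minus strand). ANGPTL8 shares 256 exon bases with DOCK6 on the opposite strand. DGAT1 shares 139 with HSF1 on the opposite strand and 444 with AC233992.1 on its own strand, and DGAT2 shares 423 with the antisense gene AP003031.1. No source used here says whether counting used strand, so reads from these overlaps cannot be told apart.

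Depth and labels were read before the genes. The 4 Huh7 hairpin libraries held 10106193 to 11954322 estimated counts, and for the remaining tables the summed mean of normalized counts ran between 16686567 and 40979203. EZH2 mRNA had 13.6 ± 0.467 CPM (counts scaled to a common depth) in Huh7 shEZH2 and 86.1 ± 4.96 CPM in shControl (SD, n = 2 each). In the HepG2 libraries labelled shEZH2, EZH2 mRNA was higher than in shControl (log2 fold change 0.90, SE 0.38, adjusted p = 0.0337 in the authors' deposited table), which goes against the label. Every value given for those libraries carries that limit. It is a difference from shControl and is not read as an effect of EZH2 knockdown. The SE of EZH2 there was 4.09 times, and that of SREBF2 6.19 times, the median of genes of similar mean in the authors' deposited table, so the level of EZH2 in those libraries is poorly determined. SREBF2, the gene of SREBP2, fell with each hairpin, with log2 fold changes of -1.58 (664), -1.08 (665) and -2.35 (667, with an SE 3.76 times that of genes of similar mean) in the authors' deposited tables. All 10 hepatocyte markers chosen for the check (ALB, APOA1, APOA2, APOB, TF, TTR, SERPINA1, AFP, HNF4A and FGB) had a row in each table. Of the 4 leukocyte markers LYZ gave nearly all of the summed level, and of the 4 adipocyte markers PLIN1, with a mean of at most 51.5 normalized counts in the authors' deposited tables, was measured.

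In HepG2 cells treated with MS7126, ANGPTL8 and PLIN2 rose, and LIPC, PNPLA3, GPAM and DGAT1 fell. Of the 8 members with an adjusted p, 2 were higher and 4 lower at an adjusted p under 0.05, against 15.5% of all 12923 genes tested called in either direction (7.44% higher, 8.06% lower). Group levels were rebuilt from each table's mean and fold change, in normalized counts, so they carry no spread per library. In bulk RNA a change in the number of cells of a kind and a change in RNA per cell cannot be told apart.

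Of the secreted inhibitors of lipoprotein lipase, ANGPTL8, an insulin-responsive liver protein, stood at a rebuilt level of 626 normalized counts with MS7126 and 62.4 with DMSO in HepG2. The authors' deposited table gave ANGPTL8 3.33 on the log2 scale (SE 0.29, adjusted p = 8.09e-28). DOCK6, which overlaps it on the opposite strand, had 0.13 (SE 0.61, adjusted p = 0.935) in the authors' deposited table, with a mean of 263.7 normalized counts. ANGPTL4, a fasting- and PPAR-responsive inhibitor, was low in HepG2, at a rebuilt 26.6 normalized counts with MS7126 and 16.4 with DMSO, and the authors' deposited table gave no adjusted p (log2 fold change 0.69, SE 0.89).

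Among the lipases, LIPC, hepatic lipase, had a rebuilt level of 170.3 normalized counts with MS7126 and 610 with DMSO, 27.9% of control (log2 fold change -1.84, SE 0.26, adjusted p = 1.76e-10 in the authors' deposited table). PNPLA3, a droplet-bound acylhydrolase induced by feeding, had 55.5 normalized counts with MS7126 and 322 with DMSO by the same rebuilding, 17.2% of control. Its log2 fold change of -2.54 (SE 0.35, adjusted p = 2.44e-11 in the authors' deposited table) was the lowest of the 9 genes in any of the 10 comparisons.

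Along the synthesis path, GPAM, the mitochondrial acyltransferase of the first acylation, fell by 0.69 on the log2 scale (SE 0.21, adjusted p = 0.0103 in the authors' deposited table). DGAT1, which adds the last acyl chain, fell by 0.74 (SE 0.16, adjusted p = 0.000128 in the authors' deposited table), while its neighbour HSF1 rose by 0.57. DGAT2, the other enzyme of that last step, had -0.24 (SE 0.18, adjusted p = 0.424 in the authors' deposited table). LPIN1, the phosphatidate phosphatase that makes diacylglycerol, had -0.28 with an SE of 0.64 (adjusted p = 0.858 in the authors' deposited table), an interval too wide to read a direction from.

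PLIN2, the main droplet-coat protein of hepatocytes, had a rebuilt level of 1617 normalized counts with MS7126 and 928 with DMSO, or 0.80 on the log2 scale (SE 0.15, adjusted p = 5.22e-06 in the authors' deposited table). Hepatocyte markers moved in the same libraries: 6 of 10 fell and none rose, their median log2 fold change was -0.74 against 0.01 over all genes tested in the authors' deposited table, and their summed rebuilt level was 163470 normalized counts with MS7126 and 296763 with DMSO. The part of that shift in the falls of LIPC, PNPLA3, GPAM and DGAT1 was not tested.

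**Figure D1:**
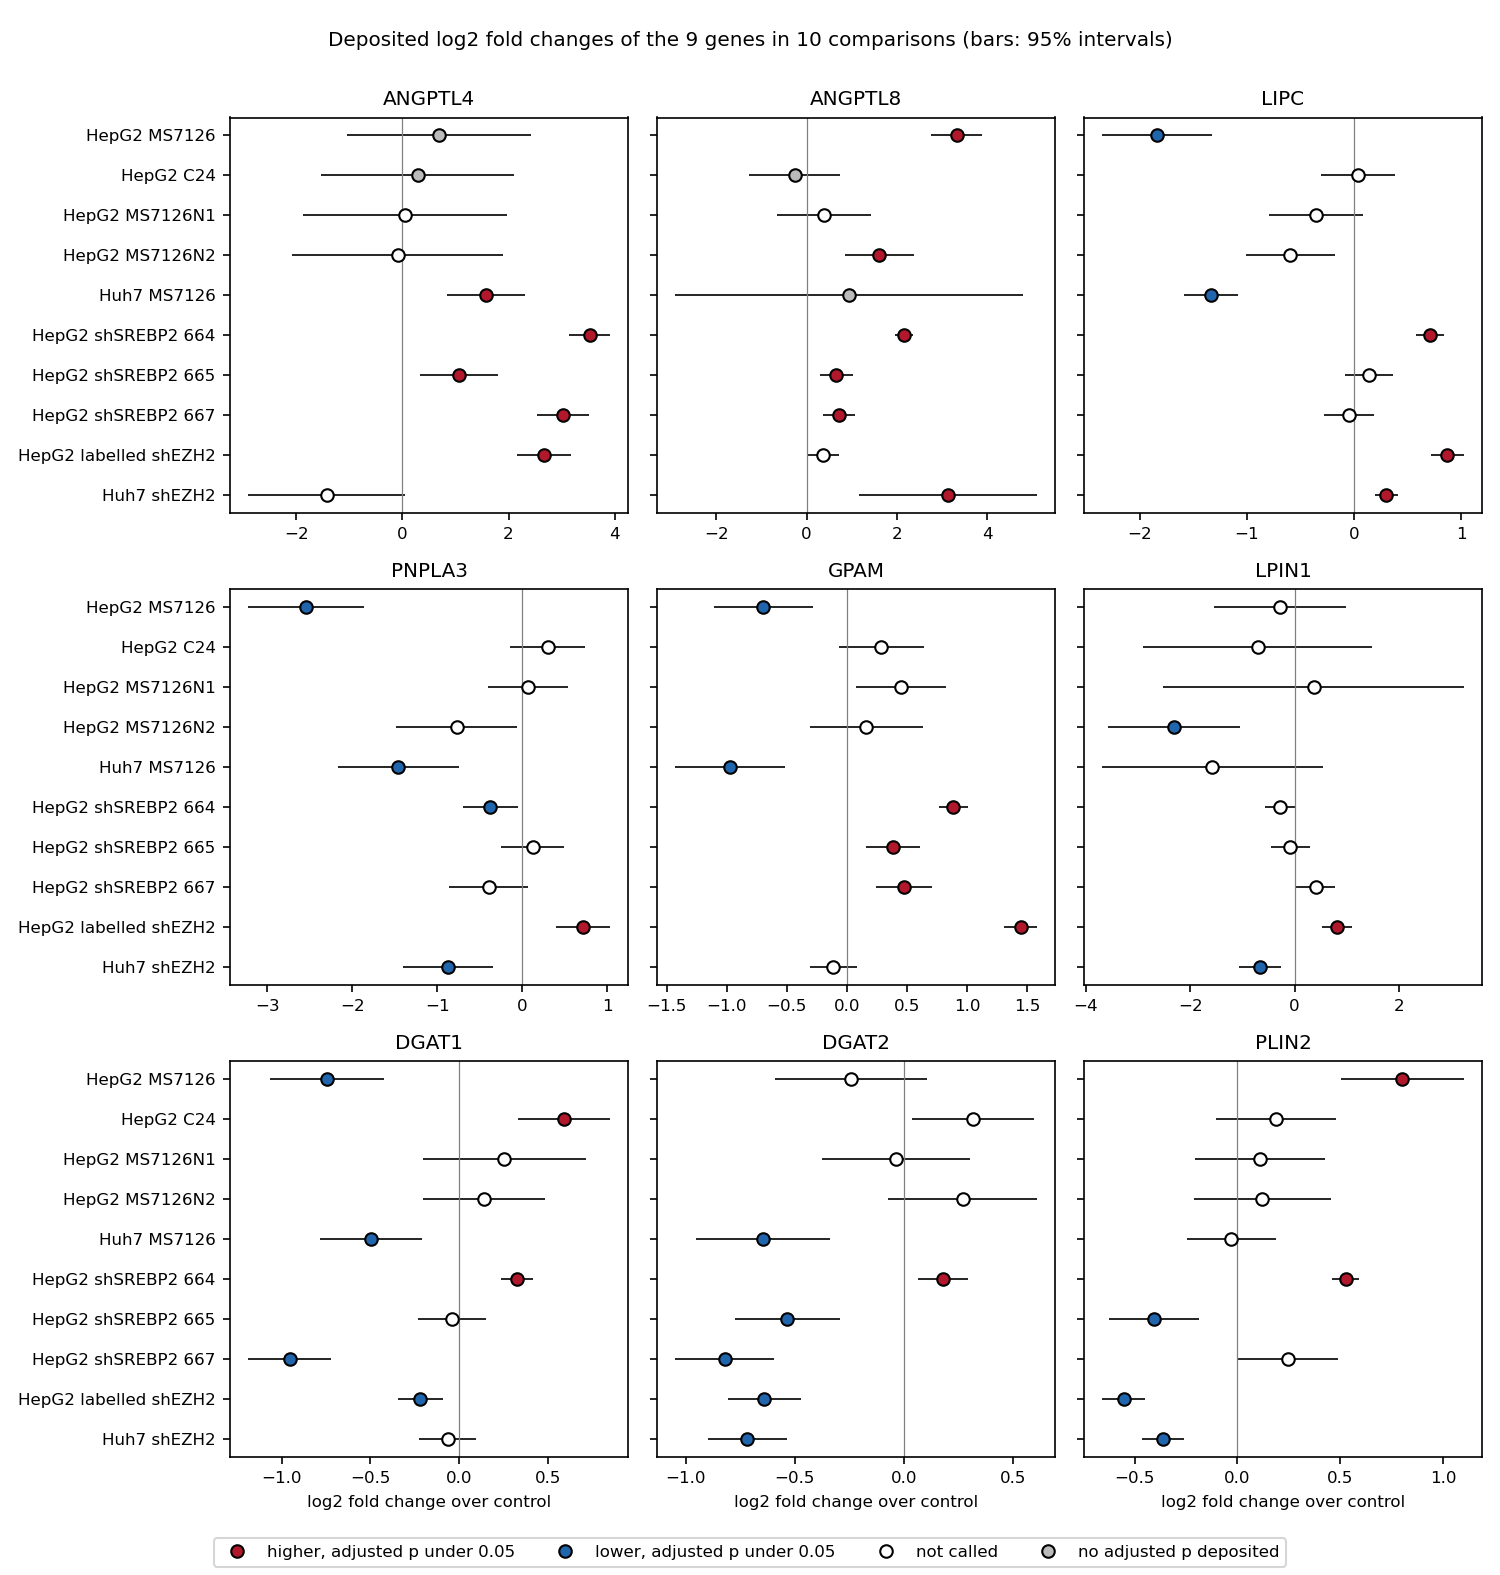
Log2 fold change over control (x axis) of each of the 9 genes in the 10 deposited comparisons (y axis), with 95% intervals; red points were called higher, blue lower, white were not called and grey had no adjusted p. ANGPTL8 reached 3.33 with MS7126 in HepG2 and ANGPTL4 reached 3.53 with hairpin 664, while LPIN1 had wide intervals in the 5 compound comparisons.

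The other compounds were given to the same line at the same dose and time. With C24, of 7 members with an adjusted p, DGAT1 was called, higher by 0.59 on the log2 scale (SE 0.13, adjusted p = 0.000612 in the authors' deposited table), against 7.02% of all genes called (3.01% higher, 4.01% lower). With MS7126N1 no member of 9 was called by the authors' deposited table, where 0.159% of genes were (0.0744% higher, 0.085% lower); at an unadjusted p under 0.05 it listed 1, GPAM (log2 fold change 0.45, SE 0.19). With MS7126N2, ANGPTL8 was called higher (log2 fold change 1.61, SE 0.39, adjusted p = 0.00861 in the authors' deposited table) and LPIN1 lower (-2.32, SE 0.65, adjusted p = 0.0484), where 0.703% of genes were called (0.362% higher, 0.341% lower). PNPLA3 and LIPC had -0.77 (SE 0.36, adjusted p = 0.863) and -0.59 (SE 0.21, adjusted p = 0.35) with MS7126N2 in the authors' deposited table, neither past the threshold. Of the 10 hepatocyte markers, 3 rose with C24, none was called with MS7126N1 and 1 fell with MS7126N2 in the authors' deposited tables, and their part in these values was not tested.

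MS7126 was then compared with each of the 3 other compounds by the difference of log2 fold changes, with p-values adjusted over all genes of the 3 pairs together. The labels name C24 as the enzymatic inhibitor matched to MS7126, and MS7126N1 and MS7126N2 as analogs without PROTAC activity; no structure is described here. Each pair shares the DMSO libraries, whose covariance the summed variances leave out.

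ANGPTL8 was higher with MS7126 than with every other compound. The difference was 3.59 against C24 (95% interval 2.44 to 4.74, adjusted p = 2.40e-07), 2.94 against MS7126N1 (1.74 to 4.13, adjusted p = 0.000155) and 1.72 against MS7126N2 (0.77 to 2.67, adjusted p = 0.0176). PNPLA3 was lower with MS7126, by a difference of -2.84 against C24 (-3.65 to -2.03, adjusted p = 2.34e-09), -2.61 against MS7126N1 (-3.44 to -1.78, adjusted p = 1.58e-07) and -1.77 against MS7126N2 (-2.75 to -0.78, adjusted p = 0.0187). LIPC differed by -1.87 against C24 (adjusted p = 6.57e-07), -1.49 against MS7126N1 (adjusted p = 0.00128) and -1.25 against MS7126N2 (adjusted p = 0.0116). DGAT1 differed by -1.33 (adjusted p = 6.56e-08), -0.996 (adjusted p = 0.0209) and -0.88 (adjusted p = 0.0120) against C24, MS7126N1 and MS7126N2, in that order.

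GPAM was lower with MS7126 than with C24 (difference -0.98, 95% interval -1.53 to -0.44, adjusted p = 0.0185) and than with MS7126N1 (-1.14, -1.70 to -0.59, adjusted p = 0.00380). Against MS7126N2 its difference of -0.86 (-1.48 to -0.23) missed the threshold (adjusted p = 0.152). PLIN2 differed by 0.61 (0.20 to 1.03), 0.69 (0.26 to 1.13) and 0.68 (0.23 to 1.13) against C24, MS7126N1 and MS7126N2, with adjusted p-values of 0.102, 0.0577 and 0.0808. An alternative reduced the variance by an assumed share of the product of the SEs, an approximate allowance for the shared DMSO libraries. The adjusted p-values of PLIN2 then became 0.0229, 0.0102 and 0.0166, and that of GPAM against MS7126N2 became 0.0407. The share of all genes called against C24, MS7126N1 and MS7126N2 became 6.41%, 5.21% and 2.91%. DGAT2 differed by -0.56 (-1.004 to -0.11, adjusted p = 0.248) against C24, -0.21 (-0.69 to 0.28) against MS7126N1 and -0.51 (-0.997 to -0.02, adjusted p = 0.468) against MS7126N2.

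For ANGPTL4 the intervals spanned 0 widely, -2.10 to 2.92 against C24, -1.94 to 3.24 against MS7126N1 and -1.86 to 3.42 against MS7126N2. LPIN1 had intervals of -2.10 to 2.95 against C24 and -3.79 to 2.50 against MS7126N1. Against MS7126N2 its difference of 2.04 had an interval of 0.25 to 3.82 that left out 0, but the adjusted p over all genes was 0.359. Against C24, 1 of the 9 genes was higher and 4 lower with MS7126, beside 4.23% of all genes compared (1.69% higher, 2.54% lower). Against MS7126N1, 1 was higher and 4 lower, beside 3.18% (1.3% higher, 1.88% lower), and against MS7126N2, 1 was higher and 3 lower, beside 1.67% (0.582% higher, 1.09% lower).

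**Figure D2:**
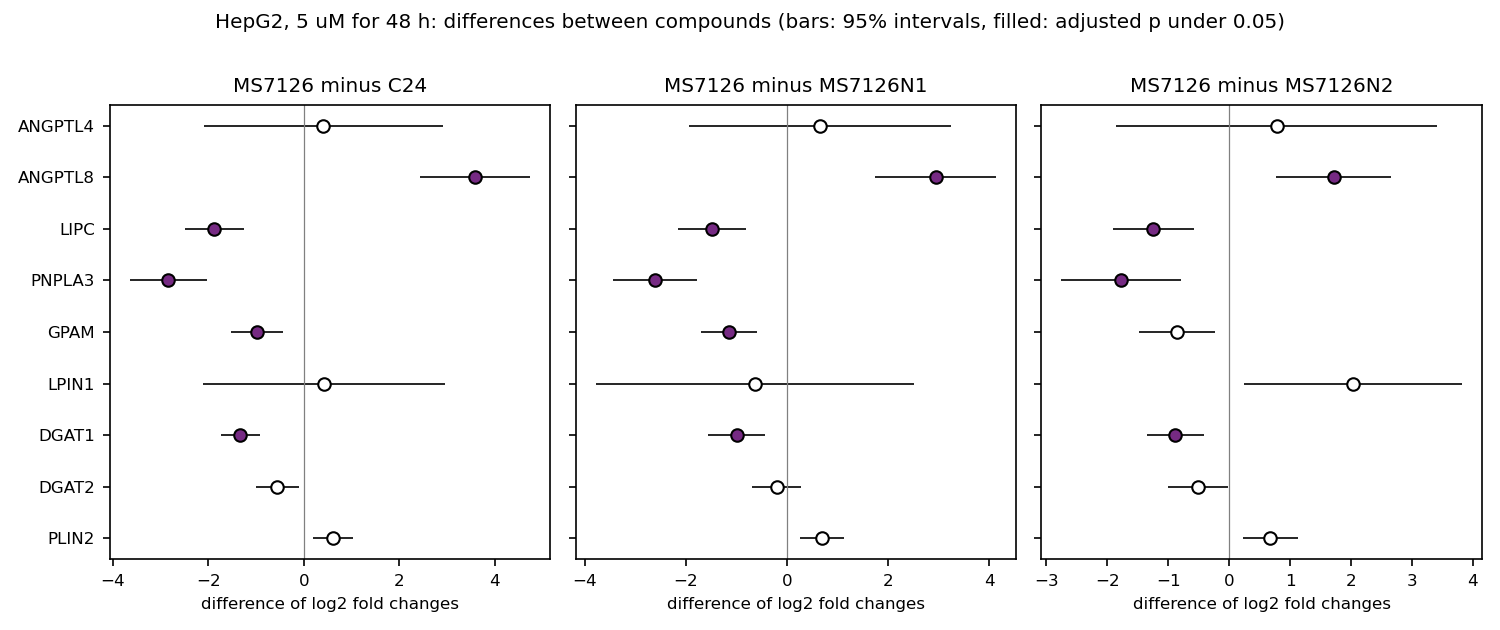
Difference of log2 fold changes (x axis) between MS7126 and C24, MS7126N1 or MS7126N2 in HepG2 for the 9 genes (y axis), with 95% intervals; filled points had an adjusted p under 0.05. ANGPTL8, LIPC, PNPLA3 and DGAT1 are filled in all 3 panels, and the ANGPTL8 difference was 3.59 against C24.

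In Huh7 cells treated with MS7126, ANGPTL4 rose and LIPC, PNPLA3, GPAM, DGAT1 and DGAT2 fell, 1 higher and 5 lower of the 8 members with an adjusted p, against 33.9% of all genes called (17.5% higher, 16.3% lower). ANGPTL4 had a rebuilt level of 182 normalized counts with MS7126 and 61.1 with DMSO (log2 fold change 1.58, SE 0.37, adjusted p = 0.000155 in the authors' deposited table). ANGPTL8 was near the limit of measurement, at a rebuilt 5.89 normalized counts with MS7126 and 3.06 with DMSO, and the authors' deposited table gave it no adjusted p.

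LIPC fell to a rebuilt 955 normalized counts with MS7126, against 2410.4 with DMSO (log2 fold change -1.34, SE 0.13, adjusted p = 3.24e-23 in the authors' deposited table). PNPLA3 fell by 1.46 on the log2 scale (SE 0.36, adjusted p = 0.000404), and GPAM fell by 0.97 (SE 0.23, adjusted p = 0.000186), in the authors' deposited table. Of the last-step enzymes, DGAT2 fell by 0.65 (SE 0.16, adjusted p = 0.000261) and DGAT1 fell by 0.50 (SE 0.15, adjusted p = 0.00325) in the authors' deposited table. HSF1 rose there by 0.34 (SE 0.12). PLIN2 was high and level, at a rebuilt 3507 normalized counts with MS7126 and 3579 with DMSO, or -0.03 on the log2 scale (SE 0.11, adjusted p = 0.884 in the authors' deposited table). LPIN1 had -1.57 with an SE of 1.08 in the authors' deposited table and was not called. Hepatocyte markers fell here as well, 8 of 10 with a median of -0.67 in the authors' deposited table and a summed rebuilt level of 411243 normalized counts with MS7126 and 697879 with DMSO; their part in these falls was not tested.

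Set side by side, PLIN2 was the member whose MS7126 response differed between the lines. HepG2 minus Huh7 came to 0.83 (95% interval 0.46 to 1.20, adjusted p = 0.000739 over all genes), beside 5.71% of all genes called (3.06% higher, 2.65% lower). PNPLA3 differed by -1.08 (-2.07 to -0.10, adjusted p = 0.244), LIPC by -0.50 (-1.07 to 0.07, adjusted p = 0.421) and DGAT2 by 0.40 (-0.06 to 0.87, adjusted p = 0.434). For ANGPTL4 the difference was -0.88 (-2.76 to 1.00) and for ANGPTL8 2.38 (-1.52 to 6.28), wide intervals for genes that were scarce in 1 of the lines. GPAM and DGAT1 differed by 0.28 (-0.34 to 0.89) and -0.24 (-0.68 to 0.19). Line, culture medium and labelled time all differ between these groups and cannot be told apart.

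**Figure D3:**
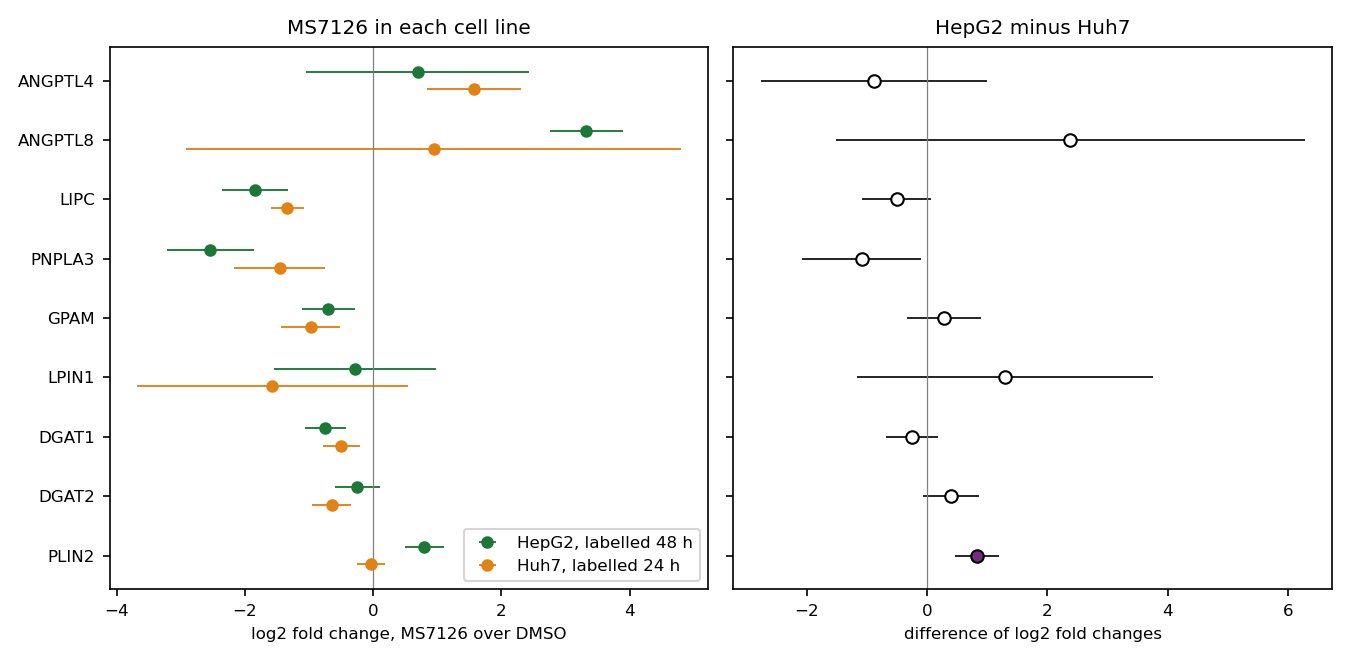
Left, log2 fold change with MS7126 over DMSO (x axis) of the 9 genes in HepG2 (green) and Huh7 (orange) with 95% intervals; right, HepG2 minus Huh7, filled where the adjusted p was under 0.05. PLIN2 is the filled point, at 0.83, and LIPC, PNPLA3, GPAM and DGAT1 lie below 0 in both lines.

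In HepG2 with SREBF2 knocked down, ANGPTL4, ANGPTL8 and GPAM rose with every hairpin, while the last-step enzymes and PLIN2 differed in direction between hairpins. The 3 hairpins share their shControl libraries, so their values are given side by side and not as repeats. Of 9 members, 7 were higher and 1 lower with 664, against 51.7% of all genes called (24.9% higher, 26.8% lower). With 665, 3 were higher and 2 lower, against 38.8% (18.7% higher, 20% lower), and with 667, 3 were higher and 2 lower, against 37.8% (18.6% higher, 19.3% lower).

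ANGPTL4 had a rebuilt level of 616 normalized counts with 664 and 53.5 with shControl, or 3.53 on the log2 scale (SE 0.20, 11.5-fold, adjusted p = 7.38e-70 in the authors' deposited table). With 667 the log2 fold change of ANGPTL4 was 3.03 (SE 0.25, 8.14-fold, adjusted p = 2.56e-31) and with 665 it was 1.07 (SE 0.37, 2.10-fold, adjusted p = 0.0135), in the authors' deposited tables. ANGPTL8 rose by 2.16 (664, SE 0.10), 0.66 (665, SE 0.19) and 0.72 (667, SE 0.18) on the log2 scale in the authors' deposited tables, with adjusted p-values of 3.92e-100, 0.00213 and 0.000379. DOCK6 rose beside it, by 0.68, 0.84 and 0.63 in the authors' deposited tables, and its part in the ANGPTL8 values was not tested.

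GPAM rose by 0.89 (664, SE 0.06), 0.38 (665, SE 0.12) and 0.48 (667, SE 0.12) on the log2 scale in the authors' deposited tables, each past the threshold. LIPC rose with 664 by 0.71 (SE 0.06, adjusted p = 9.52e-27) and had 0.14 (665, adjusted p = 0.35) and -0.05 (667, adjusted p = 0.799) in the authors' deposited tables. PNPLA3 had -0.37 (664, adjusted p = 0.0433), 0.12 (665, adjusted p = 0.654) and -0.40 (667, adjusted p = 0.184) in the authors' deposited tables, so that 1 of the 3 values passed. LPIN1 was not called with any of the 3, at -0.28, -0.08 and 0.40 for 664, 665 and 667 in the authors' deposited tables; the unadjusted p was under 0.05 with 667 (p = 0.0315).

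The last-step enzymes split by hairpin. DGAT1 had 0.32 (664, SE 0.05, adjusted p = 1.69e-11), -0.04 (665, SE 0.10, adjusted p = 0.780) and -0.96 (667, SE 0.12, adjusted p = 2.19e-14) in the authors' deposited tables. HSF1, which overlaps DGAT1 on the opposite strand, fell by 0.23 (664), 0.40 (665) and 0.38 (667) in the authors' deposited tables. The part of HSF1 in the DGAT1 values was not tested. DGAT2 had 0.18 (664, SE 0.06, adjusted p = 0.00533), -0.53 (665, SE 0.12, adjusted p = 9.29e-05) and -0.82 (667, SE 0.12, adjusted p = 3.02e-11) in the authors' deposited tables. PLIN2 rose with 664 by 0.53 (SE 0.03), fell with 665 by 0.41 (SE 0.11), and had 0.25 with 667 (SE 0.12, adjusted p = 0.103), in the authors' deposited tables. The differences between hairpins were not tested. Hepatocyte markers rose in 8, 3 and 6 of 10 and fell in 1, 4 and 2 of 10 with 664, 665 and 667 in the authors' deposited tables, and their part in the members' values was not tested.

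The HepG2 libraries labelled shEZH2, in which EZH2 mRNA was higher, share the same shControl. Of 9 members 5 were higher and 3 lower, against 57% of all genes called (28.4% higher, 28.6% lower). ANGPTL4 had a rebuilt 254.5 normalized counts in the libraries labelled shEZH2 and 40.0 in shControl (log2 fold change 2.67, SE 0.26, adjusted p = 3.56e-23 in the authors' deposited table). GPAM rose by 1.45 (SE 0.07), LIPC by 0.87 (SE 0.08), LPIN1 by 0.82 (SE 0.15) and PNPLA3 by 0.71 (SE 0.16) in the authors' deposited table. DGAT2 fell by 0.64 (SE 0.08), PLIN2 fell by 0.55 (SE 0.05) and DGAT1 fell by 0.22 (SE 0.06) in the authors' deposited table. HSF1 fell beside DGAT1, by 0.44 (SE 0.07), and its part in the DGAT1 value was not tested. ANGPTL8 had 0.36 (SE 0.18, adjusted p = 0.0683) and was not called by the authors' deposited table, where DOCK6 rose by 1.01. Hepatocyte markers rose in 7 of 10 and fell in 2 of 10 in the authors' deposited table, and their part in these values was not tested.

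Huh7 shEZH2 is the comparison with values per library, tested with edgeR's quasi-likelihood test on rounded estimated counts with Benjamini-Hochberg adjustment. ANGPTL8 and LIPC were higher, and ANGPTL4, PNPLA3, LPIN1, DGAT2 and PLIN2 lower, 7 of 9 members, against 38.7% of all 14581 genes tested (19.5% higher, 19.3% lower). The authors' deposited table called 2 higher and 4 lower, against 23.4% of genes (11.6% higher, 11.8% lower). ANGPTL8 passed the filter on low counts through the shEZH2 libraries and ANGPTL4 through the shControl libraries. At the level of its lower group alone, neither gene would have been tested. This count supports nothing about the set.

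ANGPTL8 had 28 and 20 estimated counts in the shEZH2 libraries, against 3 and 2 in the shControl libraries. The groups did not overlap, as was so for 68.6% of all genes tested, and the ratio of summed counts per depth was 8.73 (95% interval 3.49 to 28.1 from counting error alone). Its edgeR log2 fold change was 3.07 (SE 0.56, adjusted p = 0.000358), and DOCK6 had 0.11 (SE 0.11, adjusted p = 0.536) in the authors' deposited table. ANGPTL4 had 8 and 10 estimated counts in the shEZH2 libraries, against 27 and 17 in the shControl libraries. The edgeR log2 fold change of ANGPTL4 was -1.41 (SE 0.42, adjusted p = 0.0148). This call rests on few counts: the adjusted p was 0.183 in the authors' deposited table and 0.183 with DESeq2, and without shControl library 1, shEZH2 library 1 or shEZH2 library 2 it was 0.189, 0.102 or 0.0620.

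LIPC had 202.2 and 202.9 CPM in shEZH2 libraries, against 165.7 and 162.7 CPM in shControl libraries. Both shEZH2 libraries lay above both controls (edgeR log2 fold change 0.30, SE 0.03, adjusted p = 3.36e-06). PNPLA3 had 4.76 and 7.29 CPM in shEZH2 libraries, against 11.3 and 10.8 CPM in shControl libraries. Its 2 shEZH2 libraries stood apart from each other but below both controls (edgeR log2 fold change -0.86, SE 0.18, adjusted p = 0.00107). Without 1 library at a time the value of PNPLA3 ran from -1.22 to -0.60.

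GPAM had 48.8 and 46.8 CPM with shEZH2, against 51.5 and 51.8 CPM with shControl (edgeR log2 fold change -0.11, SE 0.06, adjusted p = 0.157). Groups did not overlap, yet the test did not pass. LPIN1 had 10.4 and 9.40 CPM in shEZH2 libraries, against 16.1 and 15.3 CPM in shControl libraries (edgeR log2 fold change -0.67, SE 0.12, adjusted p = 0.000297). DGAT1 had 77.7 and 79.9 CPM with shEZH2, against 85.8 and 78.7 CPM with shControl, the one member whose groups overlapped in CPM (edgeR log2 fold change -0.06, SE 0.05, adjusted p = 0.372). Among all genes tested, groups did not overlap for 68.6%, so a lack of overlap says little about a member.

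DGAT2 had 46.3 and 45.6 CPM with shEZH2, against 74.2 and 76.8 CPM with shControl (edgeR log2 fold change -0.72, SE 0.06, adjusted p = 4.12e-08). PLIN2 had 181 and 183 CPM with shEZH2, against 239 and 229 CPM with shControl (edgeR log2 fold change -0.36, SE 0.03, adjusted p = 4.94e-07). The spread within each pair was small next to the gap between groups for both genes. Hepatocyte markers fell in 5 of 10 and rose in 1 of 10 in the authors' deposited table, with a summed rebuilt level of 275756 normalized counts in shEZH2 and 360242 in shControl, and their part in these falls was not tested.

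**Figure D4:**
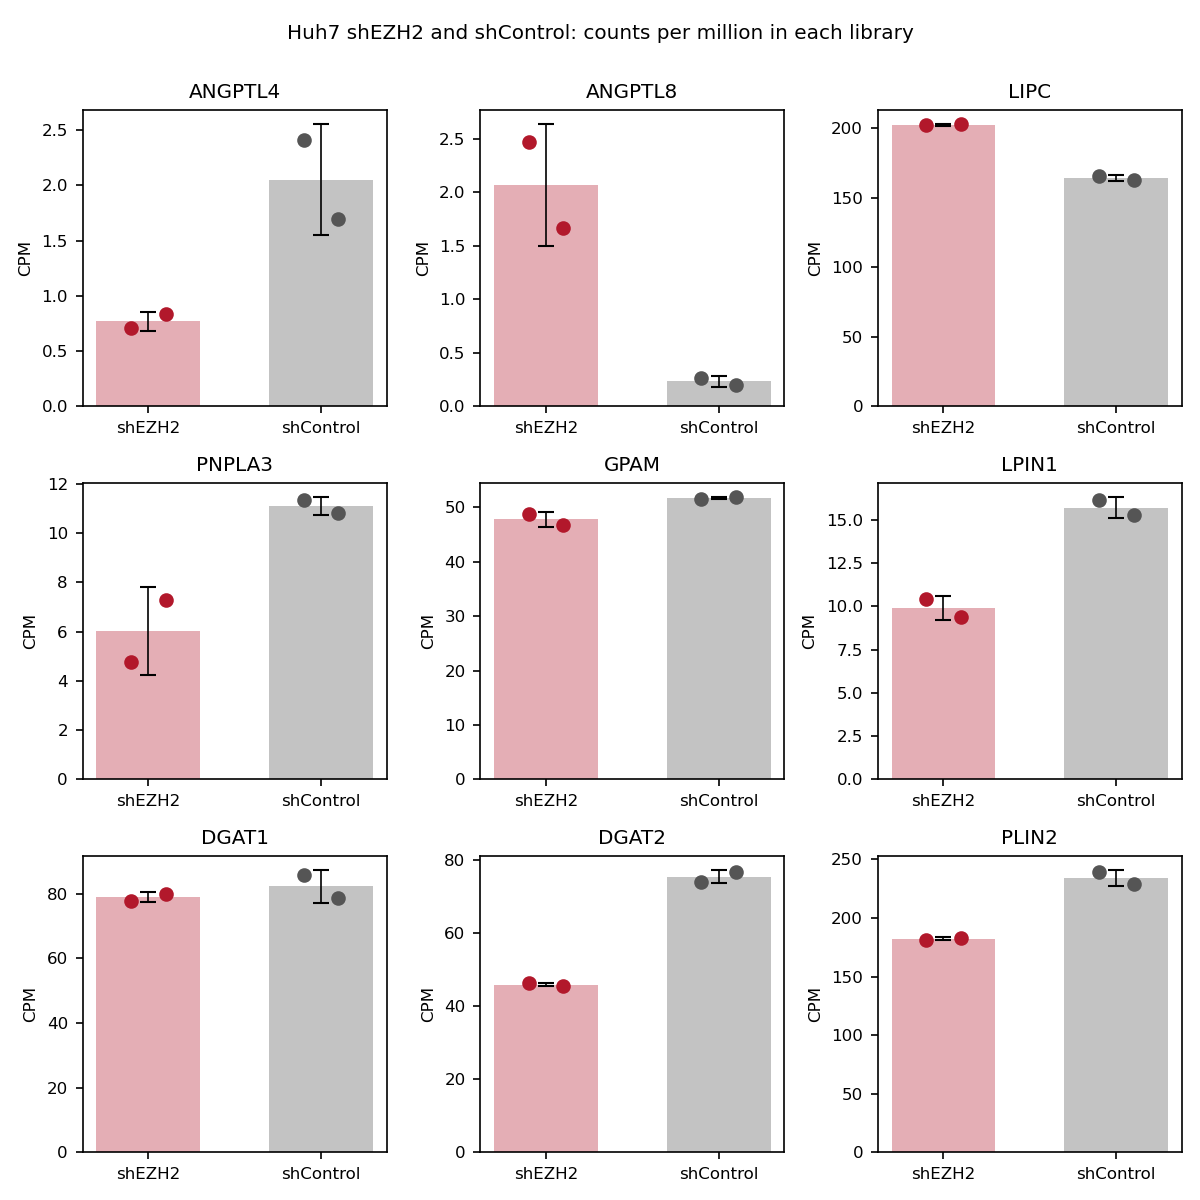
CPM (y axis, from 0) of the 9 genes in Huh7 shEZH2 (red, left) and shControl (grey, right) libraries; points are libraries, bars the mean and whiskers the SD of 2. DGAT2 sits at 46.3 and 45.6 CPM in shEZH2 against 74.2 and 76.8 in shControl, and DGAT1 overlaps.

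Compared per length (CPM per kilobase of exon) in the Huh7 libraries, PLIN2 was highest at 78.8 and 79.5 with shEZH2 and 104 and 99.5 with shControl. LIPC followed at 43.8 and 43.9 with shEZH2 and 35.9 and 35.2 with shControl CPM per kilobase. DGAT1 had 20.9 and 21.5 CPM per kilobase with shEZH2 and 23.1 and 21.2 with shControl, and DGAT2 had 18.9 and 18.6 with shEZH2 and 30.2 and 31.3 with shControl. By this measure DGAT1 was the higher with shEZH2 and DGAT2 with shControl. In CPM not divided by length, DGAT1 was above DGAT2 in every library of both groups. The turn in order thus rests on the exon lengths used, 3711 bases for DGAT1 and 2454 for DGAT2. GPAM stood at 4.92 to 5.44 CPM per kilobase over the 4 libraries and PNPLA3 at 1.70 to 4.05. LPIN1 stood at 1.54 to 2.65, ANGPTL4 at 0.375 to 1.28 and ANGPTL8 at 0.163 to 2.02 CPM per kilobase. With shEZH2 LPIN1 and ANGPTL8 were not separated beyond the spread of their libraries (1.71 and 1.54 against 2.02 and 1.36), while with shControl ANGPTL8 was the lowest of the 9 genes, at 0.219 and 0.163.

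Over the 10 comparisons, ANGPTL4 was called higher in 5 and lower in none of the 8 with an adjusted p, and ANGPTL8 higher in 6 and lower in none of 8, by the authors' deposited tables; the edgeR test differs from them in calling ANGPTL4 lower in Huh7 shEZH2. DGAT2 was called lower in 5 and higher in 1, PNPLA3 lower in 4 and higher in 1, and DGAT1 lower in 4 and higher in 2, by the authors' deposited tables. GPAM was higher in 4 and lower in 2, LIPC higher in 3 and lower in 2, PLIN2 higher in 2 and lower in 3, and LPIN1 higher in 1 and lower in 2, by the authors' deposited tables. Comparisons that share controls are not independent, so these counts are a description.

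LPIN1 stands apart in its error. In the 5 compound comparisons its SE in the authors' deposited tables was 2.14 (HepG2 MS7126), 4.35 (C24), 5.68 (MS7126N1), 2.31 (MS7126N2) and 5.02 (Huh7 MS7126) times the median of genes of similar mean. In the 5 hairpin comparisons the ratio was 0.99 to 1.06, and for the other 8 members it reached at most 1.34 in any comparison. The rebuilt DMSO level of LPIN1 ran from 265 to 499 normalized counts over the 4 tables that share the HepG2 DMSO libraries, while that of PLIN2 ran from 916 to 943. The call of LPIN1 with MS7126N2 (adjusted p = 0.0484 in the authors' deposited table) carries that limit.

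**Figure D5:**
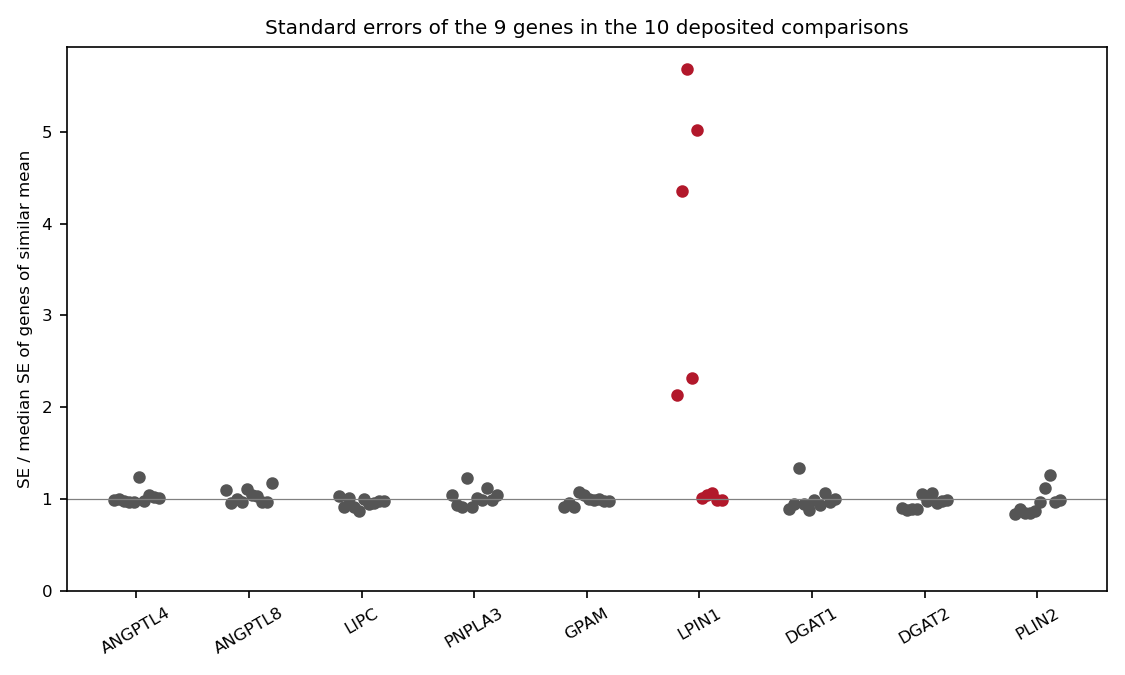
SE of the log2 fold change divided by the median SE of genes of similar mean (y axis, from 0) for the 9 genes, 1 point per deposited comparison. LPIN1 (red) reaches 5.68, and no other gene exceeds 1.34.

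Genes whose log2 fold changes over the 10 comparisons in the authors' deposited tables ran most like a member's were picked by Pearson's r among 8139 genes, or 8138 for PLIN2, with a mean of at least 100 in each. For ANGPTL4 they were MOGAT3 (r = 0.98), HES4 (r = 0.94) and CNIH4 (r = 0.93). For ANGPTL8 they were DUS1L (r = 0.91), CAMSAP1 (r = 0.84) and SNHG32 (r = 0.82). For PLIN2 they were CXXC5 (r = 0.93), BTG1 (r = 0.91) and SHARPIN (r = 0.89). Their log2 fold changes ran from -0.35 to 0.20 for DUS1L, the narrowest range, and from -0.59 to 1.29 for MOGAT3, the widest. Those of ANGPTL4 and ANGPTL8 reached 3.53 and 3.33. The mean of at least 100 was not asked of the members. ANGPTL4 had means of 15.0 to 21.5 in the HepG2 compound comparisons, and ANGPTL8 had 4.47 in Huh7 with MS7126. In Huh7 shEZH2 the means were 15.7 for ANGPTL4 and 12.8 for ANGPTL8. ANGPTL8 had 61.0 with C24 and 61.8 with MS7126N1. The points share libraries and controls and the genes are the best of many, so these values order genes and test nothing.

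Other genes of the pathway were counted from lists of 78 genes in 6 groups, chosen with earlier results of these data known. In HepG2 with MS7126, 6 of the 53 tested genes rose and 12 fell in the authors' deposited table, beside the 15.5% of all genes called. In Huh7 with MS7126, 7 of 62 rose and 17 fell in the authors' deposited table, beside 33.9% of all genes. With MS7126N1 and MS7126N2 none of 64 and 58 was called by the authors' deposited tables, which listed 1 and 4 at an unadjusted p under 0.05. With C24, 3 of 40 rose and none fell in the authors' deposited table, beside 7.02% of all genes, and LIPA, lysosomal acid lipase, was among them (0.60, SE 0.19). The list counts that follow are to be read beside the share of all genes called in the same comparison, 51.7% with 664, 57% in the libraries labelled shEZH2 and 23.4% in Huh7 shEZH2 by the authors' deposited tables.

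Of the other angiopoietin-like genes, ANGPTL1 fell with 664, 665 and 667, by 3.52, 2.25 and 2.76, in the authors' deposited tables. ANGPTL2 rose with 664 by 1.30 and with 667 by 1.69 in the authors' deposited tables. Neither change was particular to the SREBP2 hairpins. In the libraries labelled shEZH2, which share their shControl, ANGPTL1 fell by 1.44 (SE 0.23) and ANGPTL2 rose by 1.34 (SE 0.24). In HepG2 with MS7126 none of the 2 tested genes of this list was called by the authors' deposited table, nor was any at an unadjusted p under 0.05.

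Among lipases and their partners, FURIN, a convertase that cleaves lipases and angiopoietin-like proteins, rose by 0.97 (SE 0.17) and LIPA fell by 1.02 (SE 0.23) with MS7126 in HepG2 in the authors' deposited table; of 5 tested genes 2 rose and 1 fell, with a median of 0.09 against 0.01 over all genes. In Huh7 with MS7126, LIPA fell by 1.08 (SE 0.17), the 1 call among 6 tested in the authors' deposited table. With the libraries labelled shEZH2, LMF1, a lipase maturation factor, rose by 1.75 (SE 0.14) in the authors' deposited table, where 1 of 6 rose and 4 fell.

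In triglyceride synthesis and assembly, 1 of 13 tested genes rose and 4 fell with MS7126 in HepG2, with a median of -0.05 against 0.01 over all genes in the authors' deposited table. MOGAT2, which acylates monoacylglycerol, fell by 1.31 (SE 0.38) and GPAT3, a microsomal glycerol-phosphate acyltransferase, rose by 1.32 (SE 0.45) in the authors' deposited table. With 664, 6 of 15 rose and 4 fell (median 0.24 against 0.01 over all genes), led by AGPAT2, which makes phosphatidic acid (2.17, SE 0.10), in the authors' deposited table. AGPAT2 also rose in the libraries labelled shEZH2, by 1.65 (SE 0.13), in the authors' deposited table. In Huh7 shEZH2, 2 of 13 rose and 4 fell, and MTTP, which loads lipid onto apolipoprotein B, rose by 0.78 (SE 0.04), in the authors' deposited table.

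Among droplet-coat and lipolysis genes, AUP1, a droplet-bound ubiquitin-pathway protein, rose by 0.69 (SE 0.13) and CIDEB, which takes part in lipoprotein lipidation, fell by 0.68 (SE 0.22) with MS7126 in HepG2, where 1 of 12 tested genes rose and 2 fell in the authors' deposited table. In Huh7 with MS7126 the same 2 genes had 0.61 (SE 0.12) and -1.06 (SE 0.22), among 4 of 16 that rose and 3 that fell in the authors' deposited table. PLIN5, a droplet coat of oxidative tissues, rose by 1.67 (SE 0.27) with 664, where 10 of 19 rose and 6 fell in the authors' deposited table, and by 3.04 (SE 0.23) in the libraries labelled shEZH2, where 6 of 16 rose and 4 fell. In Huh7 shEZH2, 2 of 15 rose and 3 fell in the authors' deposited table.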

How the data were processed

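Per the submitters' processing notes, STAR 2.4.2 and Salmon were used with GRCh38 for the human libraries. The authors deposited 10 human comparison tables in DESeq2 layout, with a mean normalized signal per gene over the compared libraries, a log2 fold change with its standard error, a Wald score and a p-value with its Benjamini-Hochberg adjusted form. The Huh7 shEZH2 table also holds estimated counts per library as deposited by the authors, which need not be whole and were rounded before testing. Of its 15228 lines, 20 carried dates in place of symbols and were left out, and ANGPTL8 stood there under the older symbol C19orf80, matched through RefSeq synonyms.

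Huh7 shEZH2 was tested with edgeR 4.0.16 (quasi-likelihood, TMM, filterByExpr) in R 4.3.3, 2 libraries against 2, without a replicate block, and DESeq2 1.42.0 was an alternative. CPM used TMM library sizes. Differences between deposited log2 fold changes were divided by the root of the summed squared SEs (two-sided normal test, Benjamini-Hochberg over all genes). A gene was called at an adjusted p under 0.05. Group levels were rebuilt from each table's mean and fold change for groups of 2. The direction of each HepG2 table was checked by whether tables sharing a control gave the same control level: the interquartile range of the log2 ratio was at most 0.0573 as deposited. Huh7 MS7126 has no such partner, so its direction rests on the series' description.

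The 9 members and all lists were chosen with earlier results of these data known. All members are named. Of each list, the called gene with the highest and the lowest log2 fold change at a mean of at least 100 could be named. The planned limit of at most 4 per list was passed in some lists. Some named genes are also given for comparisons in which they were not the highest or lowest. Alternatives were another normalization, no filter, DESeq2, stricter thresholds, a fold minimum, a replicate block and leaving out each library. Intervals on counts cover counting error only. The 8 mouse libraries were not used here. A result of the pathway lists is not reported here.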

Additional observations from a re-analysis of the deposited data

Results flagged for a closer look

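PLIN2, the droplet-coat gene, responded differently to MS7126 in the 2 lines by a test of the difference itself. HepG2 minus Huh7 was 0.83 on the log2 scale (95% interval 0.46 to 1.20, adjusted p = 0.000739 over all genes, normal test on the deposited fold changes and SEs). The rebuilt level was 1617 normalized counts with MS7126 and 928 with DMSO in HepG2, and 3507 with MS7126 and 3579 with DMSO in Huh7. HepG2 is labelled 48 h and Huh7 24 h, although another label of the series gives 48 h for Huh7. Line, culture medium and labelled time cannot be told apart.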

How the results depend on the processing

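In Huh7 shEZH2, edgeR called 5649 genes and DESeq2 called 3424, while 3423 were called in the authors' deposited table, and leaving out 1 library at a time gave 4621 to 4866. Of the 9 members 7 were called, 6 by DESeq2 and by the authors' deposited table, and 6 to 7 without 1 library. Replicate numbers did not pair the libraries (correlation -0.048 over 7833 genes), and the fit with a replicate block called 5427 genes and 7 members. ANGPTL4 lost its call as given in the report, and no result reversed. At an adjusted p under 0.01, called pathway genes with C24 numbered 1, against 3, and members with MS7126N2 numbered 1, against 2, as they also did (1) when adjusted over all genes with a p. With at least 1.5-fold as well, members called with 664 were 4, against 8, and with 665 were 2, against 5. Reducing the variance by an assumed amount for the shared DMSO libraries let PLIN2 pass against each compound and GPAM against MS7126N2. All genes called then went to 1157, 943 and 525, against 763, 576 and 301, for C24, MS7126N1 and MS7126N2. The remaining 58 counts stayed within 1.5 times the reported count without all being equal to it: with at least 1.5-fold, members called with 667 were 4, against 5, and in the libraries labelled shEZH2 6, against 8. The remaining 134 single-gene values kept their direction and side of the threshold. With 2 libraries a group, genes as scarce as ANGPTL4 and ANGPTL8 in Huh7 are limited by counting error.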

Other observations

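Genes that PPARs are known to induce and the regulators of lipid genes were counted from the same kind of list. With 664, 9 of 11 tested PPAR-responsive genes rose and 2 fell in the authors' deposited table, with a median of 0.59 against 0.01 over all genes and beside 51.7% of all genes called (24.9% higher). The median of this list was 0.05 with 665 and 0.37 with 667, against 0.01 over all genes in each of the authors' deposited tables. With 664, CREB3L3, a hepatic transcription factor, rose by 2.31 (SE 0.05) in the authors' deposited table. ACADM, which oxidises medium-chain fatty acids, fell there by 0.65 (SE 0.08). CPT1A, the gate of mitochondrial fatty acid entry, rose by 1.77 (SE 0.15) with 665 and by 1.82 (SE 0.13) with 667 in the authors' deposited tables. With 665 and 667, 5 of 11 rose in each and 3 and 1 fell, beside 38.8% and 37.8% of all genes called. These rises were not particular to the SREBP2 hairpins. In the libraries labelled shEZH2, which share their shControl, 7 of 11 rose and 1 fell (median 0.70), beside 57% of all genes called. CREB3L3 rose there by 2.58 (SE 0.07) and CPT1A by 2.53 (SE 0.07) in the authors' deposited table. With MS7126, ACSL1, which activates long-chain fatty acids, rose by 0.98 (SE 0.22) in HepG2 and by 1.79 (SE 0.19) in Huh7 in the authors' deposited tables. It was the 1 gene of this list that rose, of 10 tested in HepG2 and 12 in Huh7. In HepG2 2 fell, beside 15.5% of all genes called, and in Huh7 4 fell, beside 33.9%. FABP1, the liver fatty acid carrier, fell by 2.26 (SE 0.22) in HepG2 and by 1.01 (SE 0.14) in Huh7 in the authors' deposited tables. CREB3L3 fell by 1.71 (SE 0.29) in HepG2 and by 1.17 (SE 0.20) in Huh7.

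Of the regulators, PPARA fell by 1.13 (SE 0.30) and NR1H2 rose by 0.69 (SE 0.23) with MS7126 in HepG2, where 1 of 11 rose and 3 fell in the authors' deposited table, beside 15.5% of all genes called. INSIG1, which retains SREBP in the endoplasmic reticulum, fell by 2.03 (SE 0.15) with MS7126 in Huh7, where 1 of 12 rose and 4 fell in the authors' deposited table, beside 33.9%. SREBF1 fell by 2.23 (SE 0.06) with 664, where 4 of 11 rose and 4 fell in the authors' deposited table, beside 51.7%. SREBF1 also fell in the libraries labelled shEZH2, by 1.13 (SE 0.07), in the authors' deposited table. In Huh7 shEZH2, PPARG rose by 0.58 (SE 0.11) and INSIG2 fell by 0.71 (SE 0.13), where 3 of 12 rose and 5 fell in the authors' deposited table, beside 23.4%.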
